A study of Mus musculus with 12 samples.

Results

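The 10 genes described here encode the TGF-β ligand TGF-β1 (*Tgfb1*), its receptors (*Tgfbr1*, *Tgfbr2* and *Tgfbr3*), SMAD proteins that carry its signal (*Smad2*, *Smad3* and *Smad4*) or inhibit it (*Smad7*), and nuclear corepressors of the SMADs (*Ski* and *Skil*). They were chosen by symbol from the gene count table of an RNA-seq experiment on mouse lymph node (LN) T cells, in which they make up 10 of 49585 genes. Each symbol was found once, and all 10 passed the filter on low counts, as did 13118 genes in all.

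TGF-β1 is secreted in a latent form and, once released, binds the type II receptor TGFBR2, which recruits and phosphorylates the type I receptor TGFBR1. TGFBR1 phosphorylates SMAD2 and SMAD3, which join SMAD4 and enter the nucleus to control transcription, while SMAD7 blocks the receptor and SKI and SKIL (also called SnoN) hold back SMAD-driven transcription. In T cells the pathway is known for restraining activation, for keeping naive T cells quiescent, and for the induction of *Foxp3* in regulatory T cells and of the integrin CD103 (encoded by *Itgae*) in CD8+ T cells.

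The experiment compared helper-lineage and cytotoxic-lineage T cells in 2 strains of mice, to ask whether lineage follows the co-receptor protein or the gene locus that encodes it. In B6 (C57BL/6) mice, B6 CD4+ T cells are the helper lineage and B6 CD8+ T cells the cytotoxic lineage. In CD8Dual mice, which the labels also call 8in4, the *Cd4* loci were rewritten to encode the CD8.1 form of CD8 in place of CD4 and the *Cd8* loci were left intact to encode CD8.2, so that CD8.1 T cells (helper lineage) and CD8.2 T cells (cytotoxic lineage) both carry CD8 co-receptors and are selected by MHC class I. The labels give every sample as male and 6 to 10 weeks old, while the methods of the study state both sexes for its mice in general. Each of the 4 groups had 3 samples of sorted LN T cells, 12 in all. The sample labels give a sort on TCRβ and CD62L, and the methods of the study add absence of CD44. The labels do not say whether the samples of a group came from separate mice, so that P values measure the spread between these samples, part of which may be technical.

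Total counts were 18667474 to 37110502 per sample, and a count of 3 corresponded to 0.0875 to 0.167 CPM (TMM-normalised counts per 1000000). *Cd4*, the rewritten gene, was at 969 ± 53.0 CPM (mean ± SD) in B6 CD4+ T cells, 49.7 ± 2.27 in CD8.1, 1.47 ± 0.341 in CD8.2 and 0.244 ± 0.120 in B6 CD8+ T cells. All 12 T cell markers were detected in every group, with summed levels of 7905 to 8893 CPM over all samples. A pair of libraries stood apart from their replicates by the chi-square of their counts per gene, which was 30.7 and 32.1 for CD8.1 replicate 1 against 8.58 between the other CD8.1 samples, and 85 and 56 for CD8.2 replicate 3 against 13.3 between the other CD8.2 samples. CD8.2 replicate 3 was the deepest library, and 3.14% of its counts came from *Gm42418*, a gene overlapping ribosomal RNA. Member results that rest on these libraries are given with and without them. Calls of other named genes that changed without either library are named.

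The promoters of *Tgfbr2*, *Ski* and *Smad3* are shown because *Tgfbr2* and *Ski* were higher in the helper lineage of both strains while *Smad3* was lower in CD8.2 T cells than in CD8.1 and B6 CD8+ T cells. The sequences are from RefSeq on GRCm38.p6 and cover bases before the annotated start that lie outside annotated exons, all on the minus strand and written 5′ to 3′, with capitals marking the SMAD core motif CAGAC. They lie at chr9:116175364-116175613 (*Tgfbr2*), chr4:155222593-155222785 (*Ski*) and chr9:63757995-63758244 (*Smad3*).
*Tgfbr2*: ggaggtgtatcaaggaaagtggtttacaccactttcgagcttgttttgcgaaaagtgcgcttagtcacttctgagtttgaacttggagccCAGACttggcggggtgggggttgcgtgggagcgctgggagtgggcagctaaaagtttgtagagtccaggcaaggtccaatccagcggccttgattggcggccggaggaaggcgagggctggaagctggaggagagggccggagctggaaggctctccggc
*Ski*: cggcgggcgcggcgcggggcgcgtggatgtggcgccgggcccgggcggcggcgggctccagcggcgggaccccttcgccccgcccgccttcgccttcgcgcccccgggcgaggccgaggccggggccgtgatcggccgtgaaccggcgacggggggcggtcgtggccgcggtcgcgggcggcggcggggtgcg
*Smad3*: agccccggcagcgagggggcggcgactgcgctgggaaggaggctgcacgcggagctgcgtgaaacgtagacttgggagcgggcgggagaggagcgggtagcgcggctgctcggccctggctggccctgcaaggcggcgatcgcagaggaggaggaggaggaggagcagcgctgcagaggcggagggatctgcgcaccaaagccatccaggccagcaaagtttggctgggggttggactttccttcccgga
The *Tgfbr2* promoter held 1 CAGAC on the given strand, 160 bases before the start, and the *Ski* and *Smad3* sequences held none on either strand. Of 32851 promoters searched over the 250 bases before the start, 42.2% held CAGAC or its reverse complement GTCTG. The palindrome GTCTAGAC, which contains both, was in 0.167% of promoters, and the core motif of RUNX factors, TGTGGT or ACCACA, was in 14.0%. Neither of these was in the promoters of *Tgfb1*, *Tgfbr1*, *Tgfbr2*, *Smad3* or *Ski*, the 5 members whose entries were used, and *Tgfbr1* had CAGAC 203 bases before its second annotated start. Over the full 250 bases before the start, GC content was 58.4% for *Tgfbr2*, 69.2% for *Smad3* and 87.6% for *Ski*. For *Ski* this window includes annotated exon bases, and 193 of its bases are shown.

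The members lie on 6 chromosomes of the mouse genome (GRCm38, GENCODE M21 annotation). *Tgfbr2* spans bases 116084293 to 116175360 of chromosome 9 on the minus strand and encodes 567 amino acids in 7 exons, and *Smad3* lies on the same chromosome and strand at bases 63646767 to 63757994 (9 exons, 425 amino acids). *Tgfbr3* spans bases 107106570 to 107289629 of chromosome 5 on the minus strand and encodes 850 amino acids in 17 exons, the most of any member. Its locus overlaps 4 other annotated genes, which are 3 unconfirmed transcripts on the same strand and a processed pseudogene on the other. *Ski* (chromosome 4, bases 155154075 to 155222592, minus strand) and its homologue *Skil* (chromosome 3, bases 31095058 to 31122577, plus strand) encode 727 and 675 amino acids. *Tgfb1* lies on chromosome 7 at bases 25687002 to 25705077 and *Tgfbr1* on chromosome 4 at bases 47353222 to 47414931, both on the plus strand. *Smad2*, *Smad4* and *Smad7* lie together on chromosome 18, and *Smad4* overlaps a processed pseudogene on the opposite strand.

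Levels were compared between members as CPM per kilobase of exon. *Tgfbr2*, the signalling type II receptor, was the most abundant member in every group, at 59.9 ± 3.22 CPM per kilobase in B6 CD4+ T cells, 46.3 ± 2.78 in B6 CD8+, 53.2 ± 1.59 in CD8.1 T cells and 44.8 ± 0.415 in CD8.2 T cells. *Ski* was second, at 55.2 ± 6.65, 36.5 ± 4.20, 46.9 ± 5.55 and 32.6 ± 0.631 CPM per kilobase in the same order. In the helper-lineage groups the ranges of *Tgfbr2* and *Ski* overlapped, and in the cytotoxic-lineage groups they did not. *Smad4*, the shared SMAD, and *Tgfb1* took the next places in each group, at 21.8 to 30.8 CPM per kilobase by group mean, with overlapping ranges in B6 CD4+ and CD8.1 T cells, and *Smad3* was in 5th place in all 4 groups.

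The members at the lower end were *Smad7*, *Skil*, *Tgfbr1*, *Tgfbr3* and *Smad2*. *Tgfbr3*, the co-receptor betaglycan that presents ligand to TGFBR2, changed its place most, from 6th of 10 in B6 CD4+ T cells (11.6 ± 1.06 CPM per kilobase) to 9th in CD8.1 (6.89 ± 0.656) and last in B6 CD8+ (3.32 ± 0.490) and CD8.2 T cells (3.85 ± 0.459). Its range in B6 CD4+ T cells overlapped that of *Smad7*, the next below, and in CD8.1 T cells that of *Skil*, the next above. *Smad2* was last in the helper-lineage groups, at 5.12 ± 0.0788 and 5.50 ± 0.233 CPM per kilobase, and was lower than *Smad3* in every group. The length used matters for this order: with the longest annotated transcript in place of all annotated exons, 20 of 40 places moved, by at most 2, and *Tgfb1* came first in CD8.1 T cells at 60.4 CPM per kilobase against 53.8 for *Tgfbr2*.

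**Figure D1:**
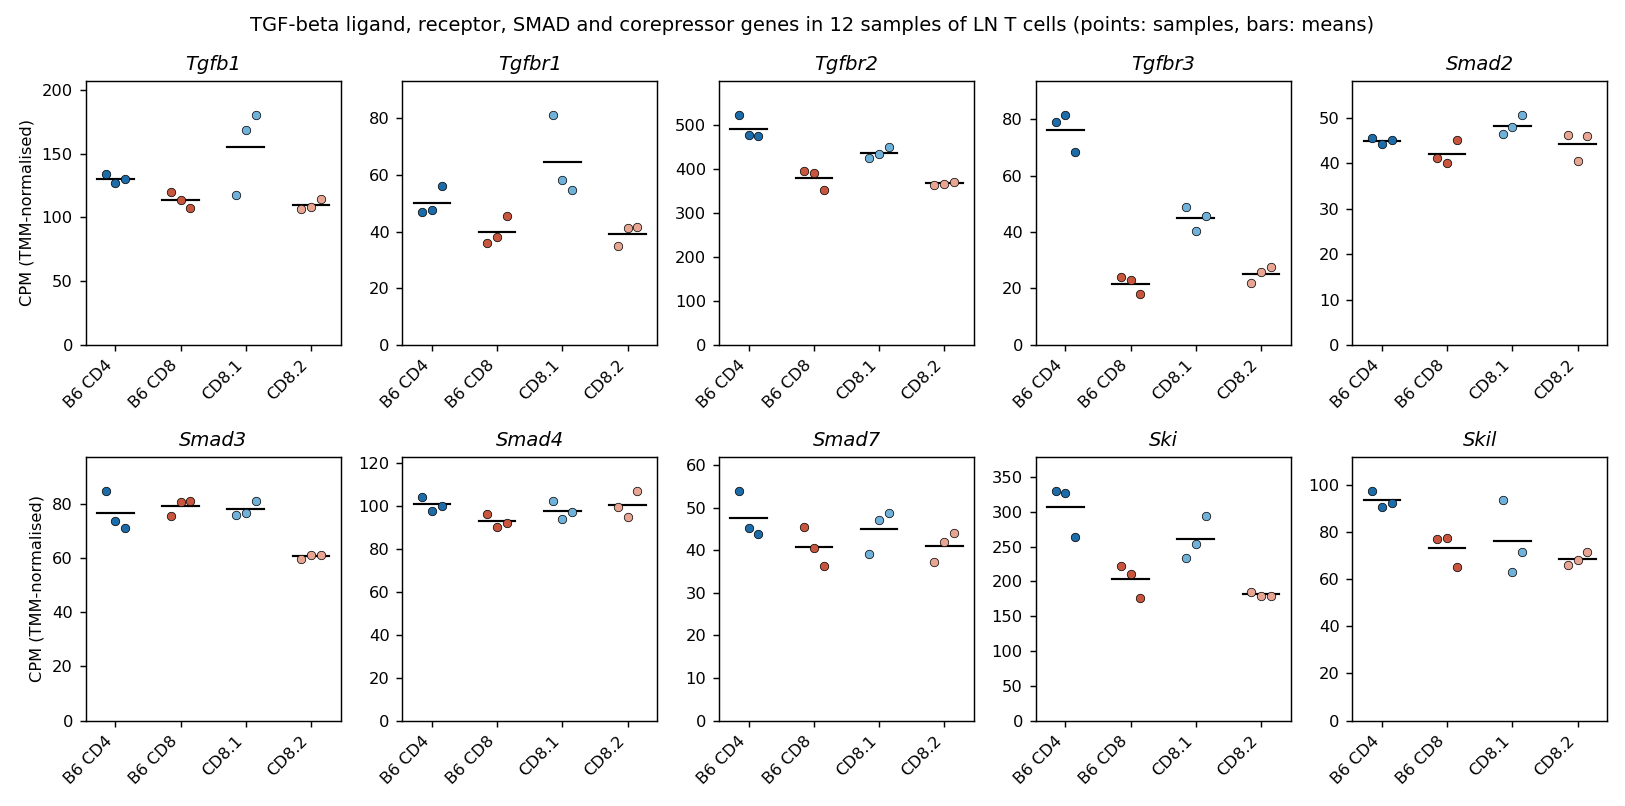
CPM (linear axes from 0) of the 10 genes in each of the 12 samples, by group; points are samples in the order of their replicate numbers and bars are group means. *Tgfbr3* separates B6 CD4+ T cells (68.2 to 81.3) from CD8.1 T cells (40.5 to 49.0) and from both cytotoxic-lineage groups (18.1 to 27.7), and *Smad3* is lowest in CD8.2 T cells (59.7 to 61.2).

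In B6 mice, 4 of the 10 members were higher in CD4+ than in CD8+ T cells (edgeR quasi-likelihood test, adjusted P under 0.05): the receptors *Tgfbr2* and *Tgfbr3* and the corepressors *Ski* and *Skil*. None was lower, 5 had an unadjusted P under 0.05, all of them higher, and DESeq2 and limma-voom each also called 4. With same-numbered B6 samples as pairs, 5 members were called, *Smad7* (adjusted P = 0.0424) being added. Of all genes tested 23.1% were called in this comparison, and 11.4% were called higher in CD4+ T cells. The median log2 fold change of the members was 0.28, against -0.00110 for all genes tested. In CD8Dual mice, 6 of 10 members were higher in CD8.1 than CD8.2 cells (*Tgfb1*, *Tgfbr1*, *Tgfbr2*, *Tgfbr3*, *Smad3* and *Ski*) and none was lower by any of the same 3 tools, against 28.7% of all genes called and 14.9% called higher. Their median log2 fold change was 0.31, against -0.00465 for all genes. *Tgfbr2*, *Tgfbr3* and *Ski* were called in both strains. The same 6 members were called in CD8Dual mice without CD8.1 replicate 1, and likewise without CD8.2 replicate 3.

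All of these changes were of moderate size. By the limits the study set for a differentially expressed gene, a fold change over 5 with P under 0.05, 0 of 10 members changed in either strain, where 3.29% of genes passed in B6 and 3.32% in CD8Dual mice. The same limits gave 0 members between the strains in the helper lineage (0.61% of genes), in the cytotoxic lineage (0.579%) and for the difference between the lineage changes (1.16%). The groups are bulk samples, in which fewer cells that express a gene and less RNA per cell cannot be told apart.

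*Tgfbr3* showed the largest lineage difference of the members in both strains. It was at 79.0, 81.3 and 68.2 CPM in the B6 CD4+ samples and at 24.1, 23.1 and 18.1 CPM in the B6 CD8+ samples. In CD8Dual mice it was at 49.0, 40.5 and 45.8 CPM in CD8.1 and at 21.9, 26.0 and 27.7 CPM in CD8.2 T cells. Every helper-lineage sample was above every cytotoxic-lineage sample, the B6 CD4+ samples were above the CD8.1 samples, and the ranges of the cytotoxic-lineage groups overlapped. The log2 fold change between the lineages was 1.80 ± 0.122 (SE; 3.49-fold, adjusted P = 2.01e-08) in B6 and 0.84 ± 0.121 (1.79-fold, adjusted P = 9.96e-05) in CD8Dual mice, and both were called with any sample left out.

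*Tgfbr2* was at 521, 476 and 474 CPM in B6 CD4+ and at 394, 389.6 and 353 CPM in B6 CD8+ T cells. In CD8Dual mice it was at 423, 434 and 449 CPM in CD8.1 and at 364, 366 and 370.2 CPM in CD8.2 T cells. In both strains the helper-lineage samples were all above the cytotoxic-lineage samples, and the difference was small, with log2 fold changes of 0.37 ± 0.0674 (1.29-fold, adjusted P = 0.000673) in B6 and 0.25 ± 0.0674 (1.19-fold, adjusted P = 0.0122) in CD8Dual mice. The CD8Dual call for *Tgfbr2* was at the threshold: its adjusted P was 0.0507 without CD8.2 replicate 1, 0.0512 without CD8.1 replicate 3 and 0.0518 with no filter on low counts.

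*Tgfbr1*, the type I receptor kinase, was at 46.8, 47.8 and 56.1 CPM in B6 CD4+ and at 35.9, 38.0 and 45.6 CPM in B6 CD8+ T cells. It was at 81.1, 58.2 and 54.8 CPM in CD8.1 and at 35.0, 41.2 and 41.5 CPM in CD8.2 T cells, and its highest value was in CD8.1 replicate 1, the library that stood apart. The lineage groups did not overlap in either strain. In CD8Dual mice its log2 fold change was 0.72 ± 0.139 (1.65-fold, adjusted P = 0.00117), and 0.51 (adjusted P = 0.0026) without CD8.1 replicate 1. In B6 mice it was 0.34 ± 0.139 and missed the threshold (adjusted P = 0.1), with a 95% interval of 0.04 to 0.63. The B6 call for *Tgfbr1* was made when only the groups compared were fitted (adjusted P = 0.0323), with no filter on low counts (0.0117) and without CD8.1 replicate 1 (0.0229), which is not in the comparison and enters through the shared estimate of the spread.

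*Tgfb1*, the ligand, was at 134, 127 and 130.4 CPM in B6 CD4+ and at 119.7, 114 and 107 CPM in B6 CD8+ T cells. It was at 118, 169 and 180.0 CPM in CD8.1 and at 107, 108 and 114 CPM in CD8.2 T cells. CD8.1 replicate 1 was the lowest of its group here and close to the CD8.2 samples, and the other CD8.1 samples were above every other sample of the series. The log2 fold change was 0.50 ± 0.117 (1.42-fold, adjusted P = 0.00455) in CD8Dual mice, and 0.65 (adjusted P = 4.22e-06) without CD8.1 replicate 1. In B6 mice it was 0.20 ± 0.116 (adjusted P = 0.259), and 0.20 (adjusted P = 0.0234) without CD8.1 replicate 1.

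Of the 4 SMAD members, *Smad3* was called between the lineages in CD8Dual mice and none in B6 mice by the unblocked test, while the difference between the strains was not called for *Smad3* (interaction adjusted P = 0.0758). *Smad3*, the receptor-activated SMAD that binds DNA directly, was at 75.9, 76.8 and 81.2 CPM in CD8.1 and at 59.7, 61.2 and 61.1 CPM in CD8.2 T cells, groups that did not overlap. Its log2 fold change was 0.36 ± 0.0771 (1.28-fold, adjusted P = 0.00252). In B6 mice *Smad3* was at 84.7, 73.7 and 71.0 CPM in CD4+ and at 75.6, 80.6 and 81.1 CPM in CD8+ T cells, which overlapped, with a log2 fold change of -0.05 ± 0.0766 (95% interval -0.21 to 0.11). The call in CD8Dual mice held with any sample left out.

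*Smad2*, *Smad4* and *Smad7* were called in none of the 5 comparisons by the unblocked edgeR test. *Smad2* was at 40.0 to 50.5 CPM over all 12 samples, with log2 fold changes between the lineages of 0.09 (95% interval -0.08 to 0.26) in B6 and 0.13 (-0.04 to 0.30) in CD8Dual mice. *Smad4* was at 90.2 to 107 CPM, with 0.12 (-0.03 to 0.27) in B6 and -0.04 (-0.19 to 0.11) in CD8Dual mice. *Smad7*, the inhibitory SMAD that is itself induced by TGF-β signalling, was at 36.2 to 53.8 CPM, with 0.23 (-0.01 to 0.47) in B6 and 0.13 (-0.11 to 0.37) in CD8Dual mice. In B6 mice each *Smad7* value in CD4+ T cells exceeded the CD8+ value of the same replicate number, at 53.8 against 45.4, 45.2 against 40.4 and 43.8 against 36.2 CPM, and a fit blocked by replicate number called the difference (log2 fold change 0.23, adjusted P = 0.0424). Without the block its adjusted P was 0.177.

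*Ski*, which recruits the NCoR corepressor to SMAD complexes, was at 329.6, 327 and 264 CPM in B6 CD4+ and at 222, 210.4 and 177 CPM in B6 CD8+ T cells. It was at 234, 253 and 295 CPM in CD8.1 and at 185, 179.0 and 179.5 CPM in CD8.2 T cells. Its lineage groups did not overlap in either strain, and its log2 fold changes of 0.60 ± 0.106 (1.51-fold, adjusted P = 0.000573) in B6 and 0.52 ± 0.106 (1.44-fold, adjusted P = 0.00176) in CD8Dual mice were called with any sample left out. *Skil* was at 97.2, 90.4 and 92.2 CPM in B6 CD4+ and at 77.0, 77.2 and 65.0 CPM in B6 CD8+ T cells, with a log2 fold change of 0.35 ± 0.116 (1.28-fold, adjusted P = 0.0402). The *Skil* call was lost without any 1 of the B6 or CD8.2 samples (adjusted P of 0.0595 to 0.193 over the 9 samples), while the B6 groups did not overlap. In CD8Dual mice *Skil* was at 93.4, 63.0 and 71.4 CPM in CD8.1 and at 66.0, 68.2 and 71.3 CPM in CD8.2 T cells, where CD8.1 replicate 1 alone was high, and the log2 fold change was 0.15 ± 0.117 (95% interval -0.10 to 0.40), or -0.04 without that sample.

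**Figure D2:**
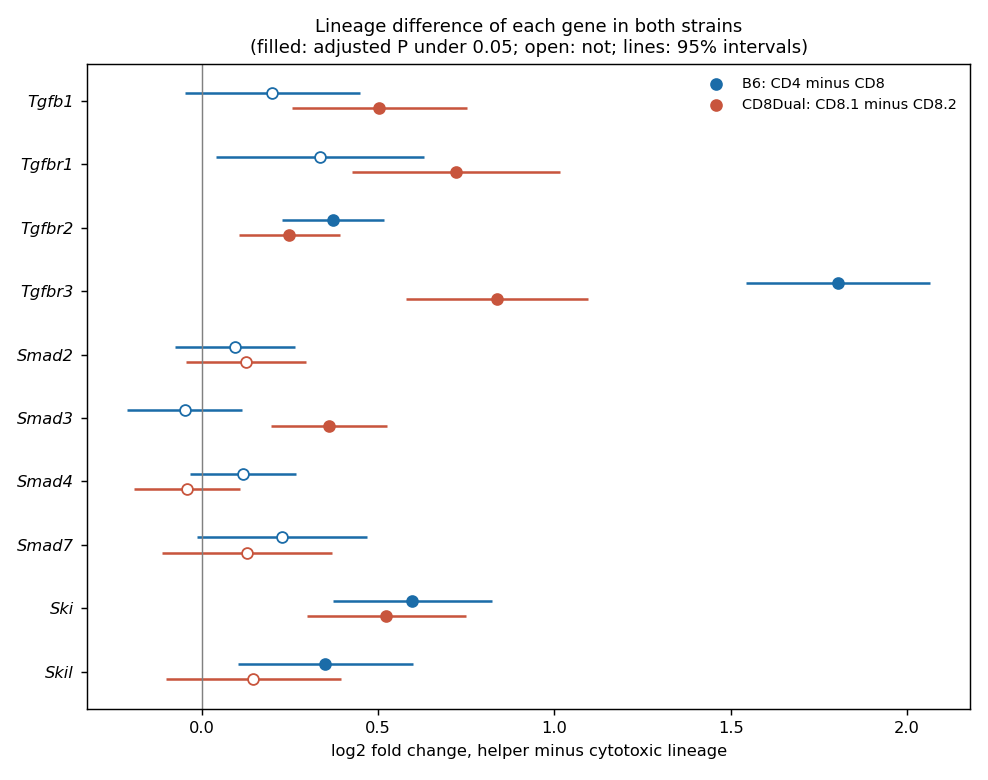
Log2 fold change of each gene between helper-lineage and cytotoxic-lineage T cells in B6 mice and in CD8Dual mice, with 95% intervals; filled points passed an adjusted P under 0.05. *Tgfbr3* lies at 1.80 in B6 and 0.84 in CD8Dual mice with intervals that do not overlap, *Tgfbr2* and *Ski* are to the right of 0 in both strains, and *Smad2* and *Smad4* intervals include 0 in both.

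Helper-lineage cells of the 2 strains were then compared. *Tgfbr3* was lower in CD8.1 than B6 CD4+ cells, by a log2 fold change of -0.76 ± 0.118 (1.69-fold, adjusted P = 0.00117), and was the only member called of 10, where 12.8% of all genes were called. Without CD8.1 replicate 1 the *Tgfbr3* difference was -0.83 (adjusted P = 0.000543), and it was called with any sample left out. The 95% intervals of *Tgfb1* (0.01 to 0.50) and *Tgfbr1* (0.07 to 0.66) lay above 0, and those of *Tgfbr2* (-0.31 to -0.03), *Ski* (-0.46 to -0.01) and *Skil* (-0.54 to -0.05) below 0, but their adjusted P values were 0.095 to 0.165.

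Calls in this comparison depended on CD8.1 replicate 1, which had the lowest *Tgfb1* and the highest *Tgfbr1* and *Skil* values of its group. Without it, *Tgfb1* was higher in CD8.1 than B6 CD4+ cells (log2 fold change 0.41, adjusted P = 0.000921, against 0.25 and 0.165 with it) and *Skil* was lower (-0.48, adjusted P = 0.00174, against -0.30 and 0.107 with it). The *Tgfbr1* difference fell from 0.36 to 0.16 without that sample, and was called without CD8.1 replicate 3 (0.47, adjusted P = 0.0488). *Ski* was called lower without B6 CD4+ replicate 3 (-0.36, adjusted P = 0.0337). With no filter on low counts, *Tgfbr1* (adjusted P = 0.00759) and *Skil* (0.0209) were called beside *Tgfbr3*.

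Between the cytotoxic-lineage groups, *Smad3* was lower in CD8.2 than B6 CD8+ cells by a log2 fold change of -0.38 ± 0.0770 (1.30-fold, adjusted P = 0.00743), and was the only member called of 10, where 7.94% of all genes were called. The 3 CD8.2 samples, at 59.7 to 61.2 CPM, were below the 3 B6 CD8+ samples, at 75.6 to 81.1 CPM, and the call held with any sample left out, including CD8.2 replicate 3 (-0.39, adjusted P = 0.0343). Of the other 9 members, *Tgfbr3* was the furthest from 0, at 0.21 (95% interval -0.05 to 0.47), followed by *Ski* at -0.16 (-0.39 to 0.06). The group means of *Smad3* were 76.5 ± 7.26 CPM in B6 CD4+, 79.1 ± 3.01 in B6 CD8+ and 78.0 ± 2.83 in CD8.1 T cells, whose ranges overlapped, and 60.7 ± 0.864 CPM in CD8.2 T cells.

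**Figure D3:**
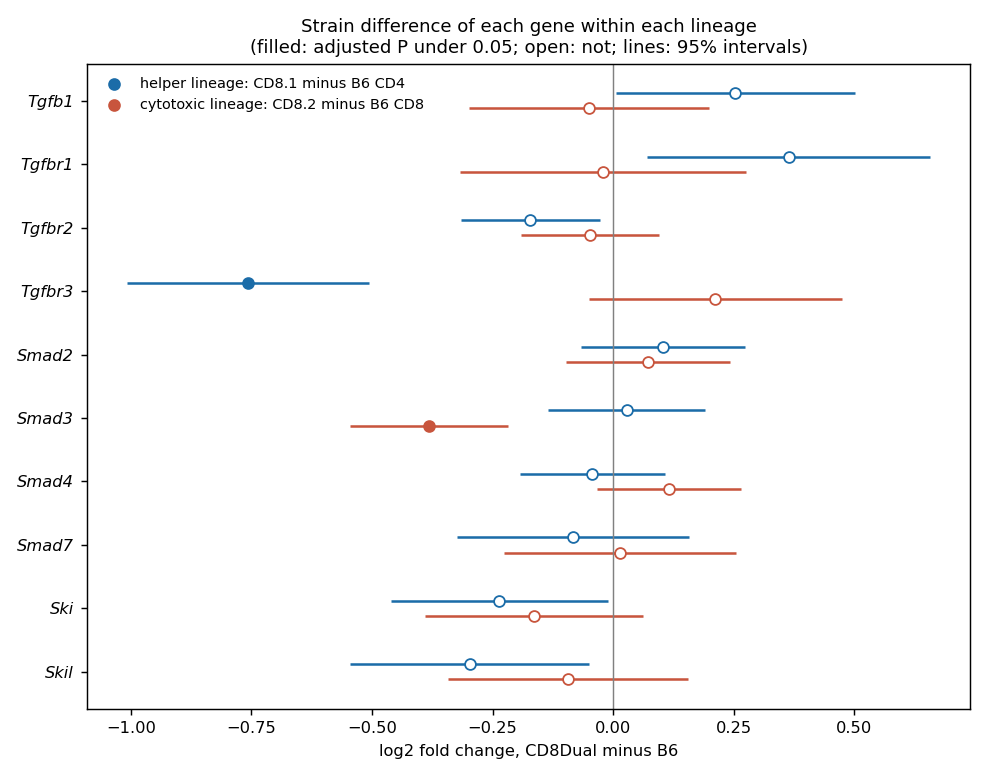
Log2 fold change of each gene between CD8Dual and B6 mice within the helper and the cytotoxic lineage, with 95% intervals; filled points passed an adjusted P under 0.05. *Tgfbr3* in the helper lineage (-0.76) and *Smad3* in the cytotoxic lineage (-0.38) are the filled points.

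An interaction term tested whether the lineage change itself differed by strain, and 1 of 10 members (*Tgfbr3*) and 1.87% of all genes were called. The lineage difference of *Tgfbr3* was smaller in CD8Dual than in B6 mice by 0.97 on the log2 scale (-0.97 ± 0.170, 95% interval -1.33 to -0.61, adjusted P = 0.00538), and it was -0.86 to -1.07 with each sample left out, called each time. *Smad3* moved the other way, with an interaction of 0.41 ± 0.109 (unadjusted P = 0.00183, adjusted P = 0.0758). DESeq2 called *Smad3* (0.41, adjusted P = 0.0127), as did edgeR without CD8.1 replicate 1 (0.42, adjusted P = 0.0219) or without B6 CD4+ replicate 1 (0.49, adjusted P = 0.0232). Without CD8.1 replicate 1, *Tgfb1* (0.46, adjusted P = 0.00581, against 0.30 and 0.455 with it) and *Skil* (-0.39, adjusted P = 0.0465, against -0.20 and 0.642 with it) were also called. For *Tgfbr1* the interaction was 0.39 (95% interval -0.03 to 0.80), and for *Tgfbr2* and *Ski* it was -0.12 (95% interval -0.33 to 0.08) and -0.07 (-0.39 to 0.25).

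*Tgfbr3* has a close homologue, *Eng* (endoglin), a co-receptor that acts with the type I receptor *Acvrl1* (ALK1) for other ligands of the family. *Eng* went the opposite way to *Tgfbr3*: it was at 1.16 to 1.79 CPM in B6 CD4+ and at 41.0 to 44.9 CPM in B6 CD8+ T cells, and at 1.48 to 2.30 CPM in CD8.1 and 22.9 to 25.0 CPM in CD8.2 T cells. Its log2 fold change between the lineages was -4.84 ± 0.149 (adjusted P = 1.85e-12) in B6 and -3.67 ± 0.145 (adjusted P = 5.89e-11) in CD8Dual mice. The *Eng* locus overlaps *Fpgs* on the opposite strand, and whether strand was used in counting is not given in the sources used here. *Acvrl1* was higher in the helper lineage, like *Tgfbr3* and unlike *Eng*, with log2 fold changes of 2.64 ± 0.115 (adjusted P = 1.01e-10) in B6 and 2.05 ± 0.114 (adjusted P = 2.31e-09) in CD8Dual mice.

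Per kilobase of exon, the ratio of *Tgfbr3* to *Eng* was 23.6 to 43.2 in the B6 CD4+ samples and 10.9 to 20.5 in the CD8.1 samples, and it was 0.249 to 0.351 in the B6 CD8+ samples and 0.542 to 0.701 in the CD8.2 samples. The 4 groups did not overlap in this ratio. Betaglycan was the more abundant co-receptor mRNA in each helper-lineage sample and endoglin in each cytotoxic-lineage sample, and the gap was narrower in CD8Dual mice on both sides. For *Eng* the lineage change differed between the strains (interaction 1.17 ± 0.221, adjusted P = 0.00941), and *Eng* was lower in CD8.2 than B6 CD8+ cells (-0.81 ± 0.111, adjusted P = 0.000483). *Acvrl1* was lower in CD8.1 than B6 CD4+ cells (-0.53 ± 0.104, adjusted P = 0.00506), where *Tgfbr3* was lower too.

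**Figure D4:**
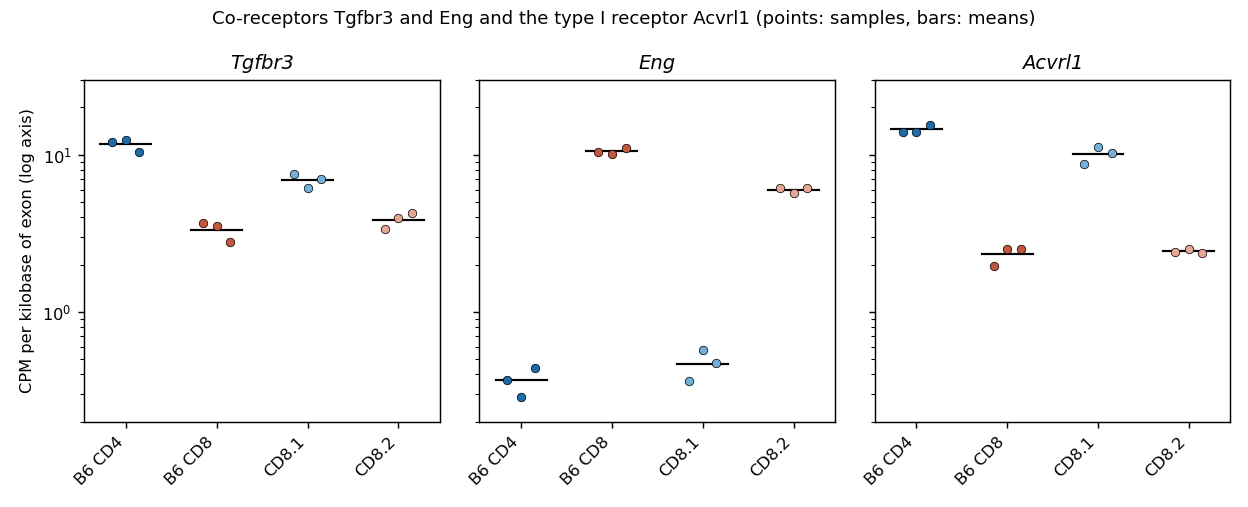
CPM per kilobase of exon (log axis) of *Tgfbr3*, *Eng* and *Acvrl1* in each of the 12 samples, with group means as bars. *Tgfbr3* and *Acvrl1* are higher in the helper-lineage groups, and *Eng* is higher in the cytotoxic-lineage groups (10.1 to 11.1 in B6 CD8+ and 5.67 to 6.17 in CD8.2 T cells).

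Beyond the members, 92 other genes of the pathway were listed by role, of which 63 passed the filter on low counts. Of these 63, 14 were higher and 12 lower in B6 CD4+ than B6 CD8+ cells, and 20 were higher and 12 lower in CD8.1 than CD8.2 cells, where 23.1% and 28.7% of all genes were called in either direction. Their median log2 fold changes were 0.01 and 0.09. Between the strains, 17 were higher and 5 lower in CD8.1 than B6 CD4+ cells, where 12.8% of all genes were called. In CD8.2 against B6 CD8+, 3 were higher and 9 lower, where 7.94% of all genes were called.

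Of 7 tested genes for the storage and release of latent TGF-β, 3 were called higher in the helper lineage in B6 and 4 in CD8Dual mice, where 11.4% and 14.9% of all genes were, and none was called lower. *Nrp1*, *Lrrc32* and *Itgb8* were called in both strains. *Lrrc32* (GARP), which holds latent TGF-β on the surface of regulatory T cells, was at 6.59 to 10.4 CPM in B6 CD4+ and 27.9 to 39.2 CPM in CD8.1 T cells, with 7 counts in all in B6 CD8+ and 15 in CD8.2 T cells. *Nrp1*, a surface receptor that binds latent TGF-β, was at 12.8 ± 2.55 CPM in B6 CD4+, 49.7 ± 5.61 in CD8.1, 1.63 ± 0.551 in B6 CD8+ and 2.28 ± 0.234 in CD8.2 T cells. *Itgb8*, a subunit of the integrin that releases active TGF-β, was at 2.28 to 3.39 CPM in CD8.1 and at 0.273 to 0.638 CPM in B6 CD4+ T cells. These 3 genes were each called higher in CD8.1 than B6 CD4+ cells, and for *Nrp1* the lineage change differed between the strains (1.51 ± 0.292, adjusted P = 0.0109), which was lost without B6 CD8+ replicate 2 (adjusted P = 0.0854) or CD8.2 replicate 3 (0.0531).

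Other ligands and receptors were mostly low or uncalled. Of 12 other ligands 3 passed the filter, and *Bmp7* was called higher in the helper lineage of both strains, with log2 fold changes of 2.01 ± 0.298 in B6 and 3.41 ± 0.292 in CD8Dual mice at 0.543 to 5.62 CPM by group mean. *Tgfb3* was at 0.0292 to 1.33 CPM over all samples and had 3 counts in all in CD8.2 T cells. *Bmpr2*, the type II receptor for BMPs, was called higher in CD8.1 than CD8.2 cells (1.13 ± 0.183, adjusted P = 0.000267), with 0.21 ± 0.181 in B6 mice and an adjusted P of 0.0936 for the difference between the strains. The *Bmpr2* difference between the strains was called with DESeq2, with no filter on low counts and without CD8.1 replicate 1. Of the SMADs for BMP signalling, *Smad5* was called higher in the helper lineage of both strains (0.43 ± 0.126 in B6 and 0.36 ± 0.126 in CD8Dual mice, adjusted P of 0.0201 and 0.0458), and *Smad1* lower in CD8.1 than CD8.2 cells (-0.36 ± 0.115, adjusted P = 0.0301). The *Smad5* calls were lost without B6 CD4+ or CD8+ replicate 1 or 3 in B6 (adjusted P of 0.0514 to 0.105) and without any sample other than CD8.1 replicate 2 in CD8Dual mice (adjusted P of 0.0621 to 0.214). The *Smad1* call was lost without CD8.2 replicate 1 or 3 or CD8.1 replicate 2 (adjusted P of 0.0523 to 0.0986).

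Regulators of receptor and SMAD turnover were mixed in direction. Of 13 negative regulators, 2 were higher and 4 lower in B6 CD4+ than B6 CD8+ cells (23.1% of all genes called), with 3 higher and 3 lower in CD8.1 than CD8.2 cells (28.7%). *Fkbp1a*, whose product FKBP12 binds and restrains TGFBR1, was higher in the helper lineage (0.60 ± 0.0794 in B6, adjusted P = 3.88e-05, and 0.74 ± 0.0796 in CD8Dual mice, adjusted P = 5.47e-06), as was the SMAD corepressor *Tgif2* (0.90 ± 0.123 and 0.77 ± 0.123). *Pmepa1*, a target of TGF-β whose product keeps SMAD2 and SMAD3 from the receptor, was lower in the helper lineage, by -1.03 ± 0.0853 in B6 (adjusted P = 2.16e-07) and -0.40 ± 0.0856 in CD8Dual mice (adjusted P = 0.00258). *Trim33* and *Usp15*, which act on SMAD complexes, were called lower in CD8.1 than CD8.2 cells, at -0.37 ± 0.0869 and -0.34 ± 0.101, and the difference between the strains was not called for either (adjusted P of 0.227 and 0.652). The *Usp15* call was lost without CD8.2 replicate 1 or 3 or CD8.1 replicate 2 (adjusted P of 0.0724 to 0.0886).

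Genes known to be raised or lowered by TGF-β were called in both directions, again beside 23.1% of all genes called in B6 and 28.7% in CD8Dual mice. Of 12 tested genes listed as raised by TGF-β, 4 were higher and 3 lower in B6 CD4+ than B6 CD8+ cells, and 7 were higher and 2 lower in CD8.1 than CD8.2 cells. *Foxp3*, the regulatory T cell factor, was at 38.3 ± 6.00 CPM in B6 CD4+ and 139.7 ± 33.9 CPM in CD8.1 T cells, against 0.333 ± 0.178 in B6 CD8+ and 1.24 ± 0.371 in CD8.2 T cells. *Itgae* was higher in the cytotoxic lineage of both strains, at 4.62 ± 1.53 CPM in B6 CD4+, 29.1 ± 1.78 in CD8.1, 246 ± 15.9 in B6 CD8+ and 101 ± 1.38 in CD8.2 T cells, and its lineage difference was smaller in CD8Dual mice by 3.93 ± 0.202 on the log2 scale (adjusted P = 1.91e-08). Of 8 tested genes listed as lowered by TGF-β, 1 was higher and 5 lower in B6 CD4+ than B6 CD8+ cells, and 2 were higher and 4 lower in CD8.1 than CD8.2 cells. Among them were *Tbx21* (-4.46 ± 0.185 and -3.32 ± 0.189), *Eomes* (-3.90 ± 0.219 and -2.98 ± 0.207) and *Il2rb* (-2.31 ± 0.0984 and -0.39 ± 0.0936), which are also markers of memory and effector T cells.

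**Figure D5:**
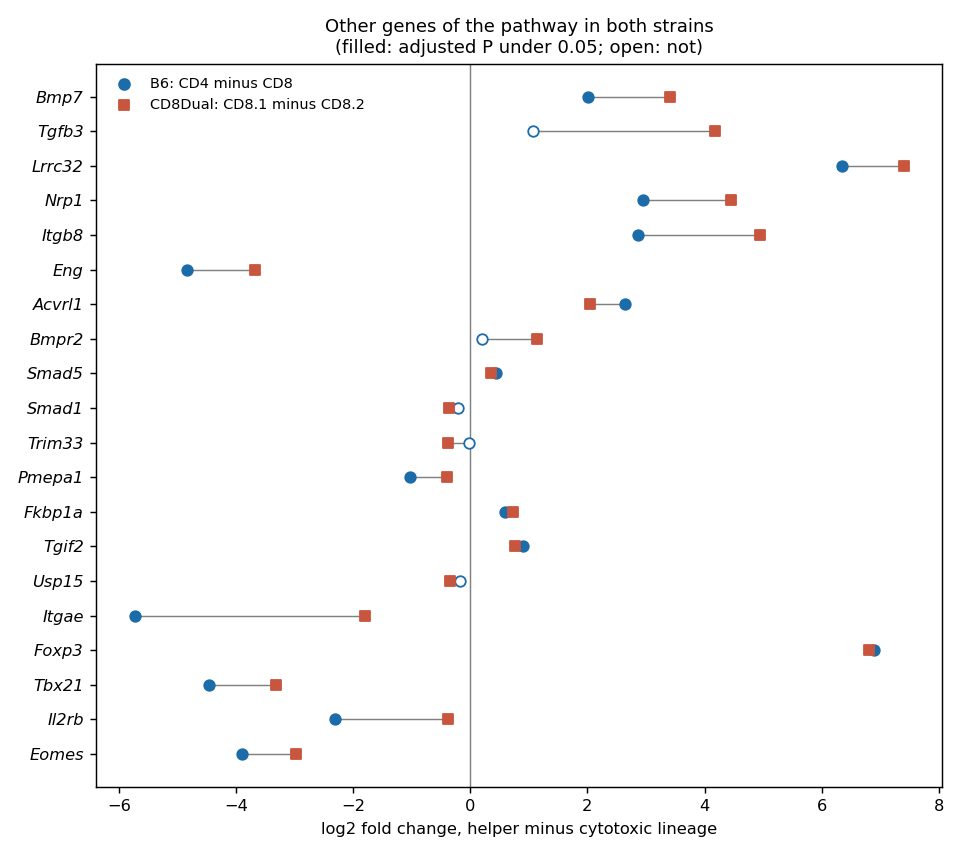
Log2 fold change between helper-lineage and cytotoxic-lineage T cells of 20 other genes of the pathway in B6 mice (circles) and CD8Dual mice (squares); filled symbols passed an adjusted P under 0.05. *Lrrc32*, *Nrp1* and *Foxp3* lie far to the right of 0 in both strains, and *Eng*, *Itgae* and *Tbx21* far to the left. Of the 20 genes shown, *Itgae* (-5.73 and -1.79) has the widest gap between the strains. *Lrrc32*, *Itgb8*, *Tgfb3* and *Foxp3* had 3 to 95 counts in all in each cytotoxic-lineage group.

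Markers of other T cell states moved with the groups. The summed level of 12 regulatory T cell markers was 262 to 386 CPM in the B6 CD4+ samples, 674 to 754 in CD8.1, 92.4 to 96.9 in B6 CD8+ and 85.0 to 87.8 in CD8.2, and no marker other than *Il10* in B6 CD8+ T cells was at 0 in every sample of a group. Of the 11 markers tested, 10 were called higher and 0 lower in CD8.1 than B6 CD4+ cells, where 12.8% of all genes were called. The summed level of 10 memory and effector markers was 420 to 448 CPM in B6 CD4+ and 639 to 685 in CD8.1 T cells. It was 2026 to 2387 CPM in B6 CD8+ and 1385 to 1445 in CD8.2 T cells. The largest parts of the B6 CD8+ sum were *Ly6c2* (765 CPM), *Il2rb* (473) and *Cxcr6* (276) by group mean. Of the 10 markers, 1 was called higher and 8 lower in B6 CD4+ than B6 CD8+ cells (23.1% of all genes called). For CD8Dual mice, 3 were called higher in the helper lineage and 6 lower (28.7%). *Cd44* was at 72.0 CPM in the CD8.1 group against 55.2 in CD8.2, and *Klrg1* at 9.80 against 0.139. The summed level of 5 NK cell markers was 2.96 to 11.2 CPM in the helper-lineage and 375 to 564 CPM in the cytotoxic-lineage samples. *Nkg7*, which cytotoxic T cells also express, was nearly all of the NK sum, at 525 CPM in B6 CD8+ and 408 CPM in CD8.2 T cells by group mean, and *Ncr1*, the more specific NK gene, had 3 to 15 counts in all in each group. B cell markers summed to 538 to 789.5 CPM over all samples with no marker at 0 in a whole group. Most of this sum was *Ighm*, at 475 CPM in B6 CD4+, 565 in CD8.1, 580 in B6 CD8+ and 547 in CD8.2 T cells by group mean. Of the 8 B cell markers, 4 were called higher and 2 lower in B6 CD4+ than B6 CD8+ cells (23.1% of all genes called). In CD8.1 against CD8.2, 2 were called higher and 0 lower (28.7%). Myeloid cell markers summed to 4.37 to 22.7 CPM over all samples. Stromal and endothelial cell markers summed to 138 to 207 CPM in the helper-lineage and 101 to 129.6 CPM in the cytotoxic-lineage samples, nearly all of it from *Pecam1*, at 190.5 CPM in B6 CD4+, 148 in CD8.1, 119 in B6 CD8+ and 108 in CD8.2 T cells by group mean. The endothelial genes *Cdh5* and *Kdr* had 5 to 51 and 0 to 1 counts in all per group. The part of these cell states in the differences of *Tgfb1*, *Tgfbr1*, *Tgfbr3*, *Smad3*, *Eng* and the genes of latent TGF-β was not tested.

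Of all other genes tested, the 3 whose log2 CPM followed that of *Tgfbr3* most closely over the 12 samples were *Trav14n-3* (r = 0.977), *Cd4* (r = 0.972) and *Ggt5* (r = 0.968), a description over samples that share 4 groups. *Ggt5* was at 28.4 ± 0.543 CPM in B6 CD4+, 20.99 ± 1.27 in CD8.1, 9.20 ± 1.08 in B6 CD8+ and 8.92 ± 1.23 in CD8.2 T cells. *Trav14n-3*, a TCRα variable segment with near-identical copies that share reads, was at 15.1 ± 0.632, 8.73 ± 0.292, 5.87 ± 0.220 and 6.29 ± 0.685 CPM in the same order. *Cd4*, which the CD8Dual alleles rewrite, was also higher in B6 CD4+ than CD8.1 T cells.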

How the data were processed

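RNA-seq of 12 samples (4 groups of 3) was analysed from raw gene counts. Per the methods of the study, total RNA was copied with a SMARTer low-input kit. The authors sequenced 125-base read pairs, aligned them to mm10 with STAR and, per their methods, counted with RSEM. The deposited counts are whole numbers without normalization, and their column names carry STAR and not RSEM. Tool versions, annotation release and use of strand are not given in the sources used here. The members and all lists were chosen with earlier results of these data known.

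Counts were fitted in R 4.3.3 with edgeR 4.0.16 (TMM, filterByExpr, glmQLFit and glmQLFTest), with all samples in 1 model with a mean per group, and P values adjusted by Benjamini-Hochberg over 13118 genes. The common biological coefficient of variation was 11.2%. Standard errors came from the fold change and the F statistic. On simulated counts the fit recovered 61.6% of 1.5-fold lineage changes in B6 and 57.6% in CD8Dual mice. It recovered 90.9% of 3-fold changes in each strain. Alternatives were DESeq2 1.42.0, limma 3.58.1 (voom), other filters, only the groups compared, the replicate block and each sample left out. Named beside the members were up to 3 genes of each pathway list with the smallest adjusted P under 0.05 in a lineage comparison, and the 3 genes most like *Tgfbr3*. *Itgam* has a second entry with no counts, and the first was used. The labels number the replicates. Same-numbered B6 CD4+ and CD8+ samples deviated together, with correlations of 0.126, 0.138 and 0.257 over genes. Their numbers were taken as pairs in the replicate block, an alternative, and not in the main fit. The correlations of same-numbered CD8Dual samples were under 0.1 for some. Replicates differed by more than sampling noise (chi-square per gene of 8.58 to 85), and intervals cover the spread between samples. Positions are from GENCODE M21 and promoters from RefSeq; 9 of 10 identifiers matched with their version and *Smad2* by its stable part. Figures used matplotlib 3.10.9.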

Additional observations from a re-analysis of the deposited data

Results flagged for a closer look

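Of the 63 other pathway genes tested, 7 were called by the interaction test in edgeR, all with positive values, where 1.87% of all genes were called. Those among the named genes are given here beside *Tgfbr3*, as the CD8Dual minus the B6 log2 fold change. *Tgfbr3*, the co-receptor betaglycan, had -0.97 ± 0.170 (adjusted P = 0.00538), with a smaller helper-lineage excess in CD8Dual mice. Its homologue *Eng* had 1.17 ± 0.221 (adjusted P = 0.00941), with a smaller cytotoxic-lineage excess. *Nrp1* had 1.51 ± 0.292 (adjusted P = 0.0109), with a larger helper-lineage excess, and its adjusted P was 0.0503 with limma-voom, 0.0854 without B6 CD8+ replicate 2 and 0.0531 without CD8.2 replicate 3. *Pmepa1*, an inhibitor induced by TGF-β, had 0.63 ± 0.121 (adjusted P = 0.00992), and 0.57 (adjusted P = 0.0556) without CD8.2 replicate 3. *Itgae* had 3.93 ± 0.202 (adjusted P = 1.91e-08) and *Il2rb*, the β chain of the IL-2 receptor, 1.93 ± 0.134 (adjusted P = 4.78e-07), both with a smaller cytotoxic-lineage excess in CD8Dual mice.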

How the results depend on the processing

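With 3 samples a group, small differences of the members have wide intervals. By the fold limit of 5, 0 members were called in each of the 5 comparisons. In the helper lineage between strains, 3 members were called with no filter on low counts. The interaction gave 2 calls with the DESeq2 Wald test. With each sample left out, 3 to 6 members were called in B6, 5 to 6 in CD8Dual mice, 1 to 3 for CD8.1 against B6 CD4+, 1 for CD8.2 against B6 CD8+ and 1 to 4 for the interaction; the counts of 6, 3 and 4 were those without CD8.1 replicate 1. With the replicate number as a block, 5 members were called in B6, where *Smad7* was added, and 6, 1, 1 and 1 in the other comparisons; the block changed no other call of a member. Of other named genes it ended the call of *Smad5* in CD8Dual mice and of *Eomes* between the helper-lineage groups, and added *Acvrl1* and *Tbx21* to the interaction. These *Smad5* and *Eomes* calls were also lost with limma-voom and with only the groups compared. The *Eomes* call was lost as well without B6 CD4+ replicate 1 or 3 or CD8.1 replicate 2 or 3. Without CD8.1 replicate 1 the interaction was also called for *Acvrl1*, *Bmp7*, *Bmpr2*, *Eomes*, *Tbx21* and *Tgfb3*. *Foxp3* and *Tgfb3* were called between the cytotoxic-lineage groups in the main fit but not without CD8.2 replicate 3. The *Foxp3* call was also lost with limma-voom and without B6 CD8+ replicate 1 or 2 or CD8.2 replicate 2. The *Tgfb3* call was also lost without B6 CD8+ replicate 3 or CD8.2 replicate 1 or 2. In CD8Dual mice the same-number correlations were -0.00388 to 0.119, and between the strains -0.197 to -0.00411. Their mean in CD8Dual mice was 0.0686. The mean for samples of unlike number (-0.0343) is no separate comparison, because deviations from a group mean sum to 0. Whether same-numbered CD8Dual samples are pairs cannot be told from these values. Of 340 member values under other settings, 333 kept their call, 1 lost it and 6 gained it; of 600 with a sample left out, 579 kept it, 11 lost it and 10 gained it, with no called value changing direction. Direction changed in 15 uncalled values. At this depth members had 1599 counts or more per group, while *Lrrc32*, *Itgb8*, *Tgfb3* and *Foxp3* were near the floor in some groups.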
